A study of Homo sapiens with 12 samples.

Results

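The genes described here are 10 genes of prolactin, growth hormone and cytokine signalling: the receptors PRLR and GHR, the kinase JAK2, the transcription factors STAT3, STAT5A, STAT5B and STAT6, and the feedback inhibitors SOCS2, SOCS3 and CISH. They were taken by symbol from a count table of 60670 genes, and all 10 were found. The cells were MDA-MB-453, an established human breast cancer cell line. The 6 DHT libraries came from cells given 10 nM dihydrotestosterone (DHT), a potent natural androgen, for 6 h, and the 6 vehicle libraries from cells given 0.001% ethanol for the same time. All cells had first grown for 72 h in DMEM rich in glucose that held 10% fetal bovine serum, and whether serum hormones were removed is not stated. Replicates were successive passages of this line, so the p-values below refer to the spread between passages of 1 line. The comparison asks which of these genes differ after a short androgen pulse in a hormone-responsive mammary tumour line.

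Prolactin and growth hormone bind single-pass receptors that have no kinase of their own and that carry JAK2. JAK2 phosphorylates the receptor and the STAT5 proteins, which pair, enter the nucleus and bind the interferon-gamma activated site (GAS), a short palindromic DNA element. Among the genes that STAT5 turns on are CISH and SOCS2, whose proteins bind back to the receptors and damp the signal; in the mammary gland this circuit drives alveolar growth and milk protein synthesis.

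The 2 feedback inhibitors with the firmest changes moved in opposite directions. SOCS2 RNA rose and CISH RNA fell with DHT, and for both genes the 6 DHT libraries lay entirely to one side of the 6 vehicle libraries. The PRLR mean was 1.38 times as high in DHT as in vehicle libraries, but its adjusted p missed the threshold of 0.05. The other genes, GHR, JAK2, the STAT genes and SOCS3, did not pass the test, and STAT5A was too low to be tested. Of the 9 genes tested, 1 rose and 1 fell, while 1.96% of all 16355 genes tested rose and 0.880% fell (2.84% either way). Tests were edgeR's quasi-likelihood F-test with Benjamini-Hochberg adjustment over those 16355 genes. A positive log2 fold change means more RNA with DHT, and levels are in CPM, that is, counts scaled to a common library total. Both replicate 2 libraries stood apart from the other 10 on the first principal component of all genes tested, at 77.4 (DHT) and 83.8 (vehicle). Vehicle replicate 5 came next at 23.3, and the rest lay from -32.3 to -6.02. Without both replicate 2 libraries the log2 fold change was 0.64 for SOCS2 (adjusted p = 0.00619), -0.49 for CISH (adjusted p = 0.00436) and 0.49 for PRLR (adjusted p = 0.0667). With each of the 12 libraries left out in turn, the SOCS2 call held in 12 fits and the CISH call in 5.

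The window just upstream of CISH is shown because it carries GAS elements, the sequence that STAT5 binds, and the mouse counterpart is a textbook STAT5 target. The sequence is from RefSeq (GRCh38.p14), covers chr3:50611775-50612024 on the minus strand, the 250 bases before the gene's start, and is written 5′ to 3′ with each match to TTCNNNGAA in capitals.
CISH upstream window: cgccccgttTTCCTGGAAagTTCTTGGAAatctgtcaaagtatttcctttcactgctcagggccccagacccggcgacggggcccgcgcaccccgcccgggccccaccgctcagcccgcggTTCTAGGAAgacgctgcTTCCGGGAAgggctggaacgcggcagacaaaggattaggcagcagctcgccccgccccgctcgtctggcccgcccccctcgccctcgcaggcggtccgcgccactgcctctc

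The CISH window held 4 matches, which began 241, 230, 129 and 112 bases before the start and fell into 2 closely spaced pairs. Because TTCNNNGAA reads the same on both strands, each match was counted once. At least 1 match was present in 6.57% of the 35116 RefSeq windows of this length, and 4 or more were present in 5 windows. In all, 9 of the 10 genes had a window in the reference, with 22 windows between them. The reference held none for SOCS2, so no sequence upstream of SOCS2 was searched. The only other GAS match among the 22 windows was a single one in 1 GHR window. The full palindrome of the steroid hormone response element, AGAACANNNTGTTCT, was in none of the 22 windows and in 0.00285% of all windows. The looser form GNACANNNTGTNC was also in none of the 22 windows, and in 0.327% of all windows. A single arm of that palindrome, AGAACA or TGTTCT, was present in 1 PRLR window and in 2 overlapping STAT5A windows, against 12.4% of all windows. A match here is a run of letters, not a measured binding site, and the CISH window was picked for display after its matches and its RNA change were known.

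SOCS2 (ENSG00000120833, chr12:93569814-93583487, plus strand, GRCh38) encodes a substrate adaptor of a ubiquitin ligase that acts chiefly on the growth hormone receptor. Its level in DHT libraries was 68.1 CPM at the lowest, 80.1 CPM at the median and 95.1 CPM at the highest. In vehicle libraries it was 42.0 CPM at the lowest, 53.2 CPM at the median and 63.2 CPM at the highest. Every DHT library was above every vehicle library, as was true of 2.29% of all genes tested. SOCS2 averaged 81.4 ± 8.97 CPM in DHT libraries and 53.6 ± 6.999 CPM in vehicle libraries (SD, n = 6 each), a ratio of means of 1.52. It rose by 0.61 on the log2 scale (SE 0.11, 95% interval 0.36 to 0.85, edgeR adjusted p = 0.00986). It stayed past the threshold under all 22 alternative settings, with adjusted p between 2.51e-05 and 0.0316. The authors' deposited table gives a log2 fold change of 0.56 with an adjusted p of 0.00796. In bulk RNA, a change in every cell and a change in the share of cells that make the RNA cannot be told apart, here and in the results below.

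CISH (ENSG00000114737, chr3:50606489-50611774, minus strand) encodes CIS, the founding member of the SOCS family, which binds phosphorylated cytokine receptors and blocks STAT5 docking. Its level in DHT libraries was 32.2 CPM at the lowest, 37.4 CPM at the median and 41.8 CPM at the highest. In vehicle libraries it was 46.9 CPM at the lowest, 52.6 CPM at the median and 73.3 CPM at the highest. Every DHT library was below every vehicle library, as was true of 1.00% of all genes tested, and vehicle replicate 2 stood above the other vehicle libraries. CISH averaged 36.9 ± 3.42 CPM in DHT libraries and 54.3 ± 9.73 CPM in vehicle libraries (SD, n = 6 each). The log2 fold change was -0.56 (SE 0.12, 95% interval -0.82 to -0.29, edgeR adjusted p = 0.0250). The authors' deposited table gives -0.54 with an adjusted p of 0.00640. The call sat close to the threshold: it was lost without DHT replicate 1, 3, 4, 5 or 6 or without vehicle replicate 3 or 6, with log2 fold changes of -0.57 to -0.52 and adjusted p of 0.0518 to 0.0765, and with no filter on low counts (-0.54, adjusted p = 0.108). Without vehicle replicate 2 the log2 fold change was -0.45, with an adjusted p of 0.0161.

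The contrast between these inhibitors showed in each library. Per exon length, the ratio of SOCS2 to CISH ran from 1.40 to 2.02 in DHT libraries with a median of 1.79, and from 0.612 to 0.932 in vehicle libraries with a median of 0.790. The ranges of this ratio did not overlap. Per exon length, SOCS2 was the higher of the pair in all 6 DHT libraries and CISH in all 6 vehicle libraries. Without division by length, the ratio of counts ran from 1.79 to 2.59 in DHT libraries, with a median of 2.29. In vehicle libraries it ran from 0.785 to 1.19 with a median of 1.01, so neither gene was the higher by count in every vehicle library. This ratio was chosen after the values of both genes had been seen and carries no test.

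**Figure D1:**
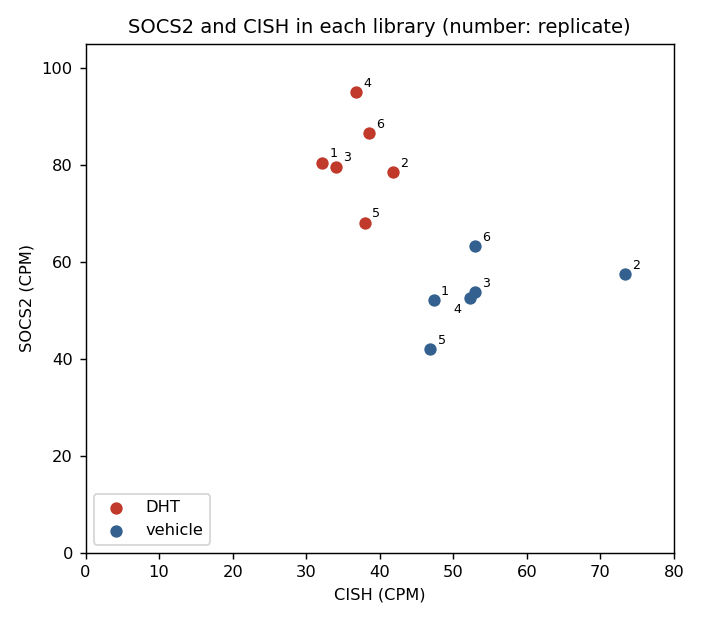
SOCS2 level (vertical axis, CPM) against CISH level (horizontal axis, CPM) in each library, with DHT libraries in red, vehicle libraries in blue and the replicate number beside each point. The DHT libraries lie above and to the left of all vehicle libraries, with SOCS2 from 68.1 to 95.1 CPM and CISH from 32.2 to 41.8 CPM.

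Both genes share a little exon sequence with a gene on the opposite strand, and no source used here states whether strand was used in counting. SOCS2 shares 277 bases, 4.28% of its exon length, with the antisense gene SOCS2-AS1. SOCS2-AS1 held 614 counts in DHT and 382 counts in vehicle libraries, with a log2 fold change of 0.47 that did not pass (adjusted p = 0.145). CISH shares 218 bases, 4.31% of its exon length, with the kinase gene MAPKAPK3, whose log2 fold change was -0.02 (adjusted p = 0.994). MAPKAPK3 held 7718 counts in DHT libraries and 6331.5 counts in vehicle libraries, more than CISH, which held 3275 counts in DHT libraries and 4125 counts in vehicle libraries. Whether reads from these neighbours entered the SOCS2 and CISH counts was not tested. For comparison, SOCS2 itself held 7123 counts in DHT libraries and 3991 counts in vehicle libraries.

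SOCS3 (ENSG00000184557, chromosome 17) encodes an inhibitor that binds JAK2 and the interleukin-6 receptor subunit gp130 and is a standard STAT3 target. It held 148 counts over the DHT libraries and 189.5 counts over the vehicle libraries. Its level was 1.02 to 2.29 CPM in DHT libraries with a median of 1.69 CPM, and 2.19 to 3.63 CPM in vehicle libraries with a median of 2.42 CPM. In 5 of the 6 DHT libraries it was below every vehicle library, and the remaining one overlapped them. The log2 fold change was -0.58 (SE 0.21, 95% interval -1.03 to -0.12), and it did not pass (edgeR adjusted p = 0.235). Per exon length, SOCS3 stood at a median of 0.0882 of CISH in DHT libraries and 0.0879 in vehicle libraries, a ratio also chosen after values were seen.

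PRLR (ENSG00000113494, chr5:35048756-35230487, minus strand) encodes the prolactin receptor. Its level in DHT libraries was 169 CPM at the lowest, 190.2 CPM at the median and 222 CPM at the highest. In vehicle libraries it was 100.2 CPM at the lowest, 144 CPM at the median and 175 CPM at the highest. DHT replicate 1 lay within the vehicle range, the other 5 DHT libraries were above every vehicle library, and the DHT library was the higher one at all 6 replicate numbers. PRLR averaged 194 ± 20.3 CPM in DHT libraries and 141 ± 25.8 CPM in vehicle libraries (SD, n = 6 each). The log2 fold change was 0.46 (SE 0.13, 95% interval 0.18 to 0.75), and the edgeR adjusted p of 0.0941 missed the threshold. DESeq2 gave 0.47 with an adjusted p of 0.0232, which passes. With the replicate number as a block, edgeR gave 0.48 with an adjusted p of 0.0310, which also passes. The authors' deposited table gives 0.42 with an adjusted p of 0.192. With each library left out in turn the adjusted p was 0.0688 to 0.228, and the log2 fold change 0.38 to 0.54, the lowest without vehicle replicate 5.

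GHR (ENSG00000112964, chr5:42423439-42721878, plus strand) encodes the growth hormone receptor, a close relative of the prolactin receptor. Its level was 79.9 to 106 CPM in DHT libraries with a median of 91.7 CPM, and 45.2 to 113 CPM in vehicle libraries with a median of 88.9 CPM. The DHT libraries all lay inside the vehicle range, which was widened by vehicle replicate 5. The log2 fold change was 0.14 (SE 0.17, 95% interval -0.23 to 0.52, edgeR adjusted p = 0.882), and 0.01 without vehicle replicate 5. Per exon length, the ratio of PRLR to GHR ran from 0.996 to 1.28 in DHT libraries with a median of 1.09, and from 0.714 to 1.18 in vehicle libraries with a median of 0.902, so the ranges of this ratio overlapped.

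JAK2 (ENSG00000096968, chromosome 9), the kinase that both receptors carry, was low in both groups. It averaged 7.02 ± 1.53 CPM in DHT libraries and 7.73 ± 2.02 CPM in vehicle libraries (SD, n = 6 each). The log2 fold change of -0.13 (SE 0.21, edgeR adjusted p = 0.915) had a 95% interval of -0.59 to 0.32, so a change of the size seen for CISH or SOCS3 was within it.

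**Figure D2:**
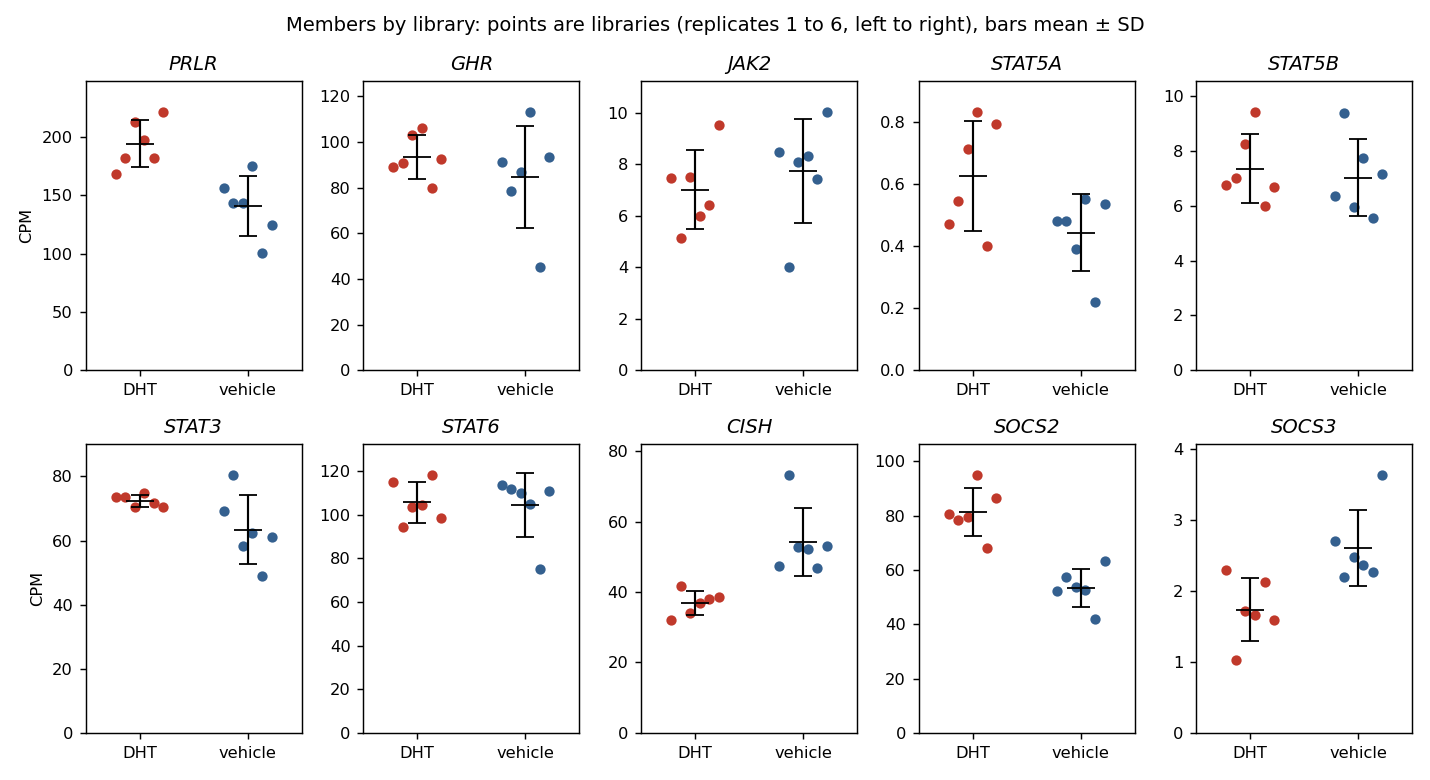
Level in CPM (vertical axes, each from 0) of the 10 genes in the 6 DHT libraries (red) and 6 vehicle libraries (blue), with points in order of replicate number and bars for mean ± SD. The DHT and vehicle points are fully separate for CISH and SOCS2, and overlap for the other 8 genes.

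The STAT5 proteins, which carry the prolactin signal to the nucleus, are encoded by neighbouring genes on chromosome 17 beside STAT3. STAT5B (ENSG00000173757, chr17:42199177-42276707) averaged 7.35 ± 1.26 CPM in DHT libraries and 7.02 ± 1.40 CPM in vehicle libraries (SD, n = 6 each). Its log2 fold change was 0.06 (SE 0.17, 95% interval -0.29 to 0.42, edgeR adjusted p = 0.955). STAT5A (ENSG00000126561, chr17:42287547-42311943) held 54 counts over the DHT libraries and 33 counts over the vehicle libraries, with 2.5 to 12.5 counts in a library. That put it under the filter on low counts, and with no filter its log2 fold change was 0.53 (SE 0.34, edgeR adjusted p = 0.675). STAT5A levels were 0.401 to 0.832 CPM in DHT libraries and 0.219 to 0.553 CPM in vehicle libraries, which overlapped.

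Per exon length, the ratio of STAT5B to STAT5A ran from 7.51 to 13.3 in DHT libraries with a median of 10.9, and from 11.8 to 22.6 in vehicle libraries with a median of 13.1. STAT5B was thus the main STAT5 RNA of the line in every library, with as few as 2.5 STAT5A counts behind the ratio. The transcripts are alike: of the 40-base stretches of STAT5A, 9.97% also occur in STAT5B, and 9.01% of those of STAT5B occur in STAT5A. The libraries were read at 40 bases, so reads from those stretches cannot be placed on one of these genes alone. How much of the STAT5A counts, and so of its level, ratio and fold change, came from such reads was not tested.

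STAT3 (ENSG00000168610, chr17:42313324-42388482), the factor of interleukin-6 type cytokines, averaged 72.5 ± 1.86 CPM in DHT libraries and 63.4 ± 10.7 CPM in vehicle libraries (SD, n = 6 each). Its DHT libraries, at 70.4 to 74.9 CPM, all lay inside the vehicle range of 48.9 to 80.5 CPM. The coefficient of variation was 2.57% in DHT libraries and 16.8% in vehicle libraries, and the log2 fold change of 0.19 did not pass (SE 0.11, edgeR adjusted p = 0.601). STAT6 (ENSG00000166888, chromosome 12), the factor of interleukin-4 and interleukin-13, averaged 105.5 ± 9.29 CPM in DHT libraries and 104.3 ± 14.6 CPM in vehicle libraries. Its log2 fold change was 0.02 (SE 0.12, edgeR adjusted p = 0.987), with a 95% interval of -0.23 to 0.26 that bounds a change in either direction more tightly than for JAK2.

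**Figure D3:**
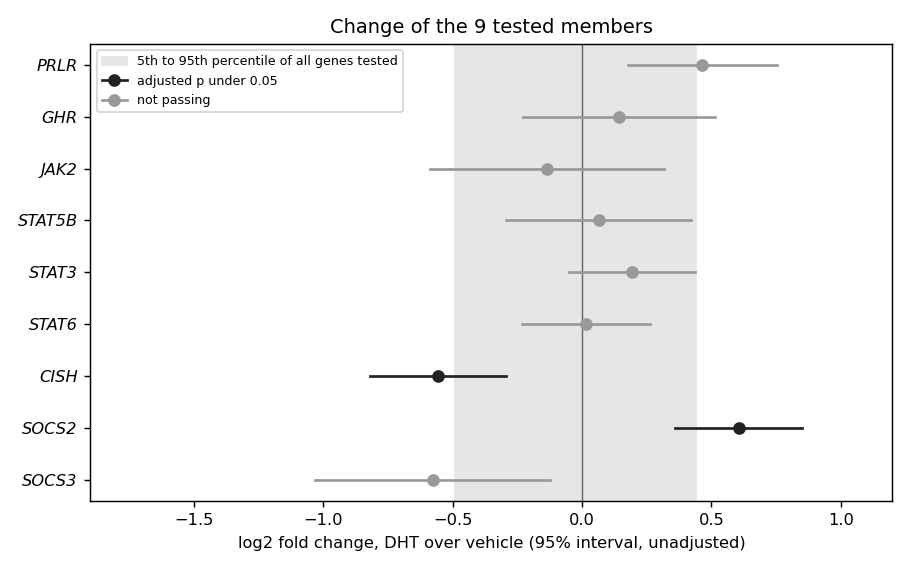
Log2 fold change, DHT over vehicle (horizontal axis), with unadjusted 95% intervals for the 9 genes tested, in black where the edgeR adjusted p was under 0.05 and in grey where it was not. The grey band spans the middle of all 16355 genes tested, from the 5th percentile at -0.49 to the 95th at 0.44. PRLR at 0.46 and SOCS2 at 0.61 lie above the band, CISH at -0.56 and SOCS3 at -0.58 below it, and the other 5 genes within it.

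The median log2 fold change of the 9 genes tested was 0.06, against -0.05 over all genes tested. At an unadjusted p under 0.05 there were 4 of them, PRLR, CISH, SOCS2 and SOCS3, while 11.99% of all 16355 genes tested were under that p. Of the 9, the 2 with no overlap between DHT and vehicle libraries compare with 3.29% of all genes tested.

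To compare levels between genes, CPM were divided by each gene's exon length in kilobases. Per length, PRLR was first in DHT libraries at 14.9 ± 1.56 CPM per kb, followed by STAT6 at 14.5, GHR at 13.5 and SOCS2 at 12.6 CPM per kb. STAT3 at 8.30 and CISH at 7.30 CPM per kb came next. In vehicle libraries STAT6 was first at 14.3 ± 2.00 CPM per kb, followed by GHR at 12.2, PRLR at 10.8 and CISH at 10.7 CPM per kb, with SOCS2 at 8.27 and STAT3 at 7.27 CPM per kb after them. These 6 genes were the upper 6 of the 10 in both groups. SOCS2 stood above CISH in the DHT order and below it in the vehicle order, and PRLR was first in the DHT order and followed STAT6 and GHR in the vehicle order.

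A wide gap followed. STAT5B, JAK2 and SOCS3 stood at 1.14, 0.887 and 0.634 CPM per kb in DHT libraries and at 1.09, 0.978 and 0.952 CPM per kb in vehicle libraries. STAT5A came last, at 0.109 CPM per kb in DHT libraries and 0.0769 CPM per kb in vehicle libraries. Of the neighbours in this order, in DHT libraries SOCS2 stood clear of STAT3, CISH of STAT5B and SOCS3 of STAT5A. In vehicle libraries STAT3 stood clear of STAT5B and SOCS3 of STAT5A. All other neighbours had overlapping ranges.

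**Figure D4:**
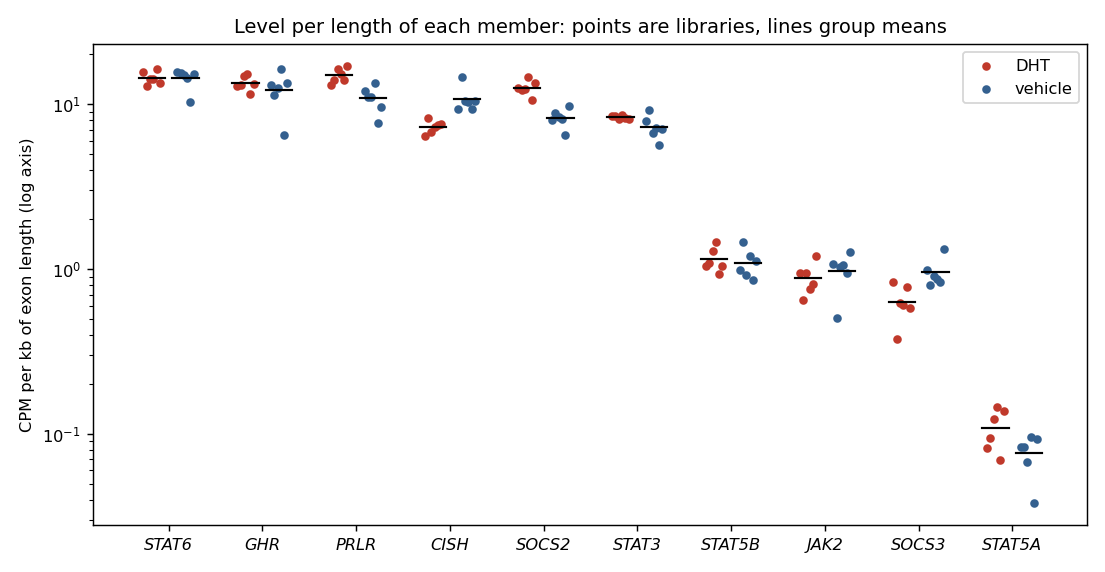
Level per exon length (vertical log axis, CPM per kb) of the 10 genes in DHT libraries (red) and vehicle libraries (blue), with a line at each group mean. JAK2, STAT5B and SOCS3 lie near 1 CPM per kb and STAT5A near 0.1 CPM per kb, below the receptors, STAT6, STAT3, CISH and SOCS2.

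The genes whose pattern over the 12 libraries was most like that of PRLR were taken by Spearman's rho of log2 CPM, among 11729 genes with a mean of at least 5 CPM. They were CLINT1 (rho 0.972), GTF3C4 (0.972), FBXW11 (0.965), PTPRJ (0.965) and FBXL4 (0.958). With each group centred on its own mean, rho was 0.706 for CLINT1, 0.923 for GTF3C4, 0.902 for FBXW11, 0.881 for PTPRJ and 0.867 for FBXL4. Of these, FBXW11 (log2 fold change 0.44, edgeR adjusted p = 0.0148) and PTPRJ (0.55, adjusted p = 0.0325) rose with DHT. The values share their libraries and depth, so rho is a description only. PRLR with SOCS2 gave a rho of 0.741 over the 12 libraries and 0.154 with the groups centred.

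Beyond these genes, 131 others of the pathway were listed in 8 groups, and 75 were expressed enough to be tested. Of the 75, 7 rose, 2 fell and 66 did not pass, with a median log2 fold change of -0.04. The ligands were almost silent: PRL, prolactin itself, had 0 counts in DHT libraries and 1 count in vehicle libraries, and GH1, pituitary growth hormone, had 0 counts throughout. A count of 0 allows up to 3 counts, which is 0.137 to 0.298 CPM in a DHT library and 0.180 to 0.641 CPM in a vehicle library, counting error only. No tested ligand of 2 passed, and none had an unadjusted p under 0.05.

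Of 14 other cytokine receptors tested, 2 rose and none fell, against 1.96% raised and 0.880% lowered of all genes tested. An unadjusted p under 0.05 was found for 4 of the 14, against 11.99% of all genes tested. LIFR, the leukaemia inhibitory factor receptor, averaged 5.04 ± 2.03 CPM in DHT libraries and 1.74 ± 0.876 CPM in vehicle libraries (SD, n = 6 each). Its log2 fold change was 1.49 (SE 0.34, edgeR adjusted p = 0.0319). Every DHT library was above every vehicle library, as was true of 2.29% of all genes tested. IL27RA, a subunit of the interleukin-27 receptor, averaged 3.64 ± 0.542 CPM in DHT libraries and 1.95 ± 0.598 CPM in vehicle libraries. Its log2 fold change was 0.87 (SE 0.20, edgeR adjusted p = 0.0311), again with no overlap between the groups. For IL13RA1 every DHT library was below every vehicle library, as for 1.00% of all genes tested. IL13RA1 did not pass (log2 fold change -0.22, edgeR adjusted p = 0.281). The LIFR call was lost without DHT replicate 1, 4 or 6 or vehicle replicate 3, 5 or 6 (adjusted p 0.0526 to 0.0799). The IL27RA call was lost without DHT replicate 3, 4 or 5 or vehicle replicate 1, 3 or 6 (adjusted p 0.0586 to 0.0864). For IL27RA the authors' deposited comparison gives 0.66 with an adjusted p of 0.0904, which does not pass. For LIFR it gives 1.16 with an adjusted p of 0.0101, which passes. For IL6R, which missed the threshold in edgeR (0.65, adjusted p = 0.0778), the authors' comparison gives 0.62 with an adjusted p of 0.0308, which passes. IL6ST, which encodes gp130, the signalling partner of the LIF receptor, averaged 6.72 ± 0.685 CPM in DHT libraries and 5.89 ± 1.27 CPM in vehicle libraries, a log2 fold change of 0.19 that missed the threshold (adjusted p = 0.800).

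The other kinases and brakes showed no call. Of 4 other JAK and STAT genes tested, none passed, and none did in DESeq2, limma-voom or at an unadjusted p under 0.05. JAK1, the kinase used with gp130, averaged 66.0 ± 7.58 CPM in DHT libraries and 69.6 ± 16.8 CPM in vehicle libraries (log2 fold change -0.08, edgeR adjusted p = 0.940). The same held for all 16 other JAK-STAT inhibitors, which include the PIAS proteins, SOCS4 to SOCS7 and phosphatases, with log2 fold changes from -0.29 to 0.19. SOCS1, the close relative of SOCS3, averaged 1.07 ± 0.364 CPM in DHT libraries and 1.11 ± 0.466 CPM in vehicle libraries (log2 fold change -0.02, 95% interval -0.66 to 0.63, adjusted p = 0.994). Of 12 receptor partners and adaptors none passed in edgeR or limma-voom, 4 had an unadjusted p under 0.05 (11.99% of all genes tested), and DESeq2 called 1 raised and 2 lowered. NCOA1, higher in every DHT library than in every vehicle library, had an edgeR log2 fold change of 0.59 (adjusted p = 0.0691). IRS1 had -0.54 (edgeR adjusted p = 0.0740). The authors' deposited comparison passes both, NCOA1 at 0.56 (adjusted p of 0.0156) and IRS1 at -0.58 (adjusted p of 0.0108).

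Genes listed as prolactin or STAT5 targets moved in both directions: of 11 tested, 4 rose and 1 fell. These counts take no account of whether the signal raises or lowers each gene, and STAT5 activity was not tested. Of all genes tested, 1.96% rose and 0.880% fell. MYC, a growth-promoting transcription factor, averaged 138 ± 24.3 CPM in DHT libraries and 38.4 ± 10.7 CPM in vehicle libraries (log2 fold change 1.85, SE 0.19, edgeR adjusted p = 8.42e-05). EHF, an epithelial ETS factor, averaged 818 ± 89.8 CPM in DHT libraries and 448 ± 72.7 CPM in vehicle libraries (log2 fold change 0.87, SE 0.14, adjusted p = 0.00279). XDH, xanthine dehydrogenase, which is also needed to wrap milk fat droplets, averaged 12.3 ± 3.16 CPM in DHT libraries and 36.3 ± 10.5 CPM in vehicle libraries (log2 fold change -1.55, SE 0.22, adjusted p = 0.00102). For MYC, EHF and XDH the DHT and vehicle libraries did not overlap, as was true of 3.29% of all genes tested. Each of these calls held with any library left out.

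The other 2 rises in that group were close to the threshold. WNT4, a secreted signal of ductal branching, averaged 4.87 ± 1.25 CPM in DHT libraries and 2.64 ± 0.680 CPM in vehicle libraries (log2 fold change 0.91, edgeR adjusted p = 0.0365). Its call was lost without DHT replicate 1, 2, 3, 4 or 6 or vehicle replicate 1, 3, 4 or 5, with adjusted p up to 0.1001. BCL6, a transcriptional repressor named here after its values were seen, averaged 25.9 ± 4.41 CPM in DHT libraries and 13.7 ± 5.28 CPM in vehicle libraries (log2 fold change 0.91, adjusted p = 0.0466). Its call was lost without any 1 library other than vehicle replicate 2 or 5, with adjusted p up to 0.109. The milk protein genes CSN1S1, CSN2, CSN3 and LALBA had 0 counts in all 12 libraries. PIP, prolactin-induced protein, averaged 24.8 ± 10.1 CPM in DHT libraries and 28.5 ± 11.97 CPM in vehicle libraries, which missed the threshold (log2 fold change -0.20, 95% interval -0.83 to 0.42, adjusted p = 0.903).

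Of 13 genes known as STAT3 targets, 1 rose: HIF1A, the hypoxia-response factor, which averaged 137 ± 10.1 CPM in DHT libraries and 89.4 ± 14.5 CPM in vehicle libraries (log2 fold change 0.62, SE 0.12, edgeR adjusted p = 0.0116). Of 3 genes known as STAT6 targets, 1 fell: GATA3, a luminal and T helper cell transcription factor, which averaged 601 ± 67.0 CPM in DHT libraries and 908 ± 132 CPM in vehicle libraries (log2 fold change -0.59, SE 0.13, adjusted p = 0.0253). The GATA3 call was lost without DHT replicate 1, 3, 4 or 6 or vehicle replicate 1 or 6 (adjusted p 0.0531 to 0.0771). For GATA3 the authors' deposited comparison gives -0.48 with an adjusted p of 0.127, which does not pass. The counts of STAT3 and STAT6 targets called compare with 1.96% of all genes tested that rose and 0.880% that fell. Genes on these lists can have regulators besides the STAT proteins, and which regulator lay behind any of the changes was not tested.

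**Figure D5:**
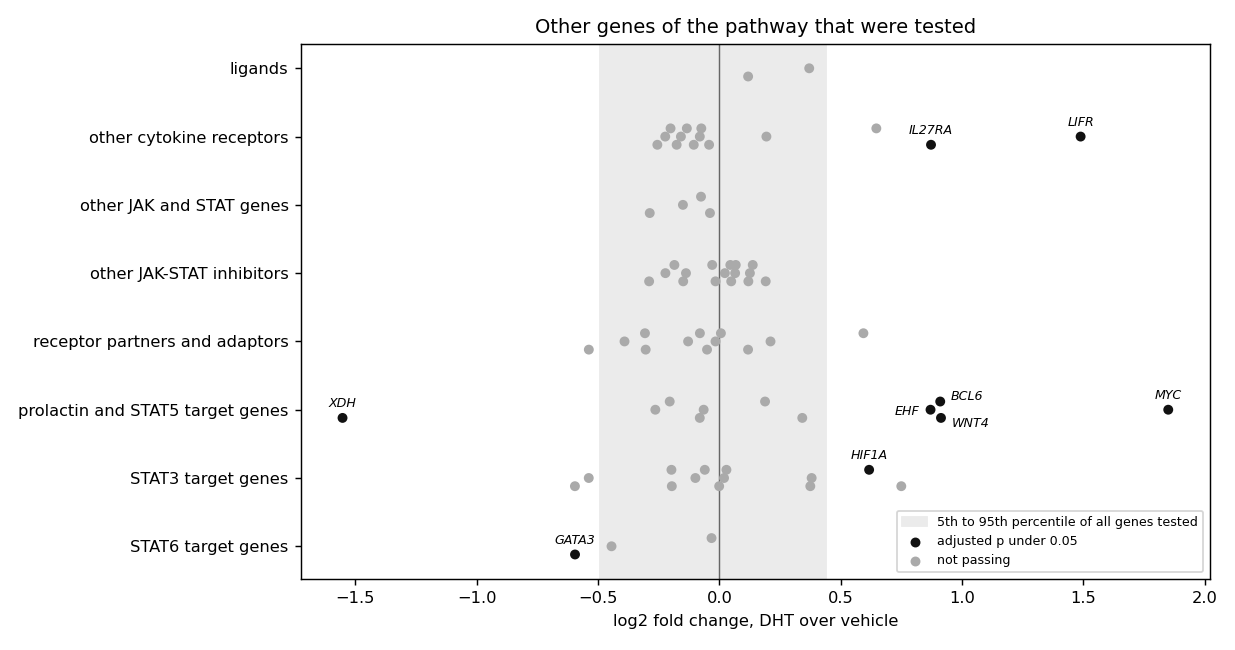
Log2 fold change, DHT over vehicle (horizontal axis), of the 75 other pathway genes tested, in 8 groups (rows), in black and named where the edgeR adjusted p was under 0.05 and in grey where it was not. The 7 raised genes lie to the right, from HIF1A at 0.62 to MYC at 1.85, and the 2 lowered genes, GATA3 at -0.59 and XDH at -1.55, to the left.

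Across the series, libraries held 9486951 to 25678781 counts in the DHT group and 4346465 to 16963880 in the vehicle group. In all, 320 genes rose and 144 fell, which is 1.96% and 0.880% of all genes tested. The line markers reported were all expressed enough to be tested. FOXA1 (log2 fold change -0.75, edgeR adjusted p = 0.00463) and GATA3 fell, and none rose. In the authors' deposited comparison GATA3 did not pass (adjusted p of 0.127). The estrogen and progesterone receptor genes ESR1 and PGR stayed under the filter, at 11 and 13 counts in DHT libraries and 29 and 26 counts in vehicle libraries. Of 8 basal or myoepithelial markers, 3 were tested and 1 fell, TP63 (-2.58, adjusted p = 2.41e-06), and the summed level of the 8 was 8.11 to 10.02 CPM in DHT libraries and 15.9 to 24.9 CPM in vehicle libraries. The 6 markers of leukocytes, cells rich in JAK-STAT signalling genes, summed to 0.0911 to 0.472 CPM in DHT libraries and at most 0.854 CPM in vehicle libraries. Of 8 fibroblast or endothelial markers 3 were tested and none passed. All 3 had an unadjusted edgeR p under 0.05 (11.99% of all genes tested). Their log2 fold changes were -0.36 for COL1A1, -1.10 for COL1A2 and -1.17 for COL3A1. The authors' deposited comparison passes COL1A2 (-1.16, adjusted p of 0.0258), but not COL1A1 or COL3A1. This list summed to 60.2 to 76.1 CPM in DHT libraries and 76.1 to 110.1 CPM in vehicle libraries, mostly COL1A1. Vehicle replicate 5 had the lowest level of its group for 8 of the 10 genes described and the highest share of mitochondrial counts, 8.07% against 3.03% to 5.66% in the others; both were looked at after the values were seen. The part of any marker or of that share in the results above was not tested.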

How the data were processed

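RNA was sequenced as single 40 bp reads from 12 libraries (6 DHT, 6 vehicle), per the labels' protocols. The deposited table holds estimated counts per gene, made by the authors. The submitters' processing notes name STAR, featureCounts and the build GRCh38, and no source used here states versions or options. Between 39.58% and 46.7% of nonzero values were not whole (tolerance 0.005), so they were rounded for testing; whole counts had been thought possible. A record of 1 gene broken over 3 lines was left out. The authors' deposited comparison of 14559 genes gives log2 fold changes, average log2 CPM, p-values and adjusted p-values per the file headers, and lists 9 of the 10 genes.

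In R 4.3.3, edgeR 4.0.16 was used with filterByExpr, TMM scaling, glmQLFit and glmQLFTest with group as the only term, and Benjamini-Hochberg adjustment over 16355 genes. SE was taken as the size of the log2 change divided by the root of F. CPM are unrounded counts over TMM-scaled totals. Intervals and floors cover this spread or counting error only. In the shallowest library 1 count was worth 0.214 CPM, in the deepest 0.0456 CPM. DESeq2 1.42.0, limma-voom (limma 3.58.1), other scalings, other filters, unrounded counts, a stricter threshold, the replicate number as a block, both replicate 2 libraries left out and each library left out in turn were alternatives.

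The genes and lists were chosen with earlier results of these data known. All 10 genes are reported; from each list up to 3 raised and 3 lowered genes with the smallest p were named, plus PIP, IL6ST, JAK1 and SOCS1, and the 5 genes most like PRLR. An item that the rule names is not reported here. Sequences are from RefSeq, and the 40-base comparison used GENCODE transcripts; it was added after values were seen.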

Additional observations from a re-analysis of the deposited data

Results flagged for a closer look

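Among 52 sets of 6 libraries, 1 for each group of each gene screened, 5 held a library whose gap to its nearest neighbour took more of the whole range than Dixon's limit at the 95% level for 6 values. Chance flags about 1 in 20 such sets. CISH was high in vehicle replicate 2 at 73.3 CPM (gap 0.770 of the range). STAT6 was low in vehicle replicate 5 at 75.2 CPM (gap 0.768). SOCS3 was high in vehicle replicate 6, the shallowest library, at 3.63 CPM (gap 0.648). SOCS1 was high in vehicle replicate 2 at 2.00 CPM (gap 0.659). BCL6 was high in DHT replicate 2 at 34.4 CPM (gap 0.645).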

How the results depend on the processing

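SOCS2 kept its rise under all 22 alternatives. The genes changed numbered 793 in DESeq2 (510 raised, 283 lowered), 920 without both replicate 2 libraries (608, 312), 195 at an adjusted p under 0.01 (137, 58) and 278 to 619 with 1 library left out (189 to 434, 86 to 199), and without the filter 90 were lowered. Of the 10 genes, 2 rose in DESeq2, where PRLR passed at 0.47; the number that fell was 0 without the filter (CISH -0.54) and at an adjusted p under 0.01 (CISH -0.56), and 0 to 1 with 1 library left out (CISH -0.60 to -0.45). Other pathway genes raised were 4 without the filter, 2 at the stricter threshold and 3 to 7 with 1 library left out; those lowered were 4 in DESeq2, 1 without the filter, 1 at the stricter threshold and 1 to 4 with 1 library left out. The cause was not tested. With the replicate number as a block, 1286 genes changed (764 raised, 522 lowered), PRLR passed at 0.48 so that 2 of the 10 genes rose, and other pathway genes lowered were 6. Deviations of same-numbered libraries correlated at -0.238 for replicate 5 and at 0.259 to 0.875 for the other numbers. Of 12 libraries, 6 correlated best with their own number. No label states that a number marks a passage shared by both groups, and these values do not settle it. The rule used, a correlation above 0.1 for every number, was not met, so the block was kept as an alternative.

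Signs turned only for genes far from the threshold. With 1 library left out, STAT5B ran from -0.0185 (without DHT replicate 4) to 0.16. STAT6 ran from -0.063 (vehicle replicate 5) to 0.045, with -0.00874 and -0.0184 without DHT replicates 1 and 5. PIP ran from -0.44 to 0.00835 (vehicle replicate 5) and JAK1 from -0.18 to 0.034 (vehicle replicate 2), and JAK1 was 0.00217 without both replicate 2 libraries. SOCS1 was 0.0104 in limma-voom, 0.00182 with the block, 0.00718 without the filter, 0.073 without both replicate 2 libraries, and -0.21 to 0.26 with 1 library left out, above 0 without DHT replicate 1, 3 or 6 or vehicle replicate 2 or 5. At this depth STAT5A, with 54 counts in DHT and 33 in vehicle libraries, was under the filter.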
